A study of Homo sapiens with 4 samples.

Results

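The folding machinery of the endoplasmic reticulum (ER) was followed through 10 genes, the chaperones HSPA5, HYOU1, SDF2L1 and HSP90B1, the lectin chaperones CALR and CANX, and the disulfide isomerases PDIA3, PDIA4, PDIA6 and P4HB. They were chosen by name as ER folding genes whose levels tell an unfolded protein response from signalling through ATF4. All 10 were found among the 18639 genes named on the array, each by 1 probe, and all 10 were detected on all 4 arrays. RNA was taken from lines of HEK293, an established cell line derived from human embryonic kidney. One line carried a transgene for LGP2, a helicase that binds double-stranded RNA and modulates the sensors RIG-I and MDA5, and the other a transgene for LGP2-4KR, a name the labels leave unexplained. Cells were sampled unstimulated (0 hr) and 12 hr after short poly I:C, an artificial double-stranded RNA, was transfected at 100 ng/ml with Lipofectamine. Both lines carried an LGP2 transgene. Its promoter and the number of clones are not given in the labels, and no line without a transgene and no mock-transfected culture was analysed here. Poly I:C, transfection and 12 hr in culture therefore cannot be told apart. There was 1 array for each line and time, so a single ratio has no replicate check.

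Proteins that enter the ER fold with the help of Hsp70- and Hsp90-type chaperones, of lectins that hold glycoproteins, and of isomerases that form and shuffle disulfide bonds. When unfolded proteins accumulate, the sensors ATF6, ERN1 (IRE1) and EIF2AK3 (PERK) are activated. ATF6 and the spliced form of XBP1, made by IRE1, raise transcription of the chaperone genes, while PERK phosphorylates the translation factor eIF2 alpha and so raises translation of ATF4. ATF4 is also raised by other eIF2 alpha kinases, among them PKR, which binds double-stranded RNA, and its targets serve amino acid supply and stress adaptation rather than ER folding. The 10 genes thus stand mostly downstream of the ATF6 and XBP1 arms.

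The ER stress response element, the promoter sequence through which ATF6 acts together with NF-Y, was looked for in the members' promoters. It was searched as CCAAT and CCACG separated by any 9 bases, on both strands of the RefSeq promoter windows of GRCh38.p14, which run from 250 bases before to 50 after each annotated start. The table held windows for 9 of the 10 genes, and 5 of these 9 had an exact match. Among all 27305 genes with a window the share was 0.0916%. The element was searched because ATF6 is known to act on chaperone genes through it, so the members' share is a description and not a test. The matching sites are shown because they mark which members carry the element, each as 59 bases on the strand of the gene, with the match in capitals.
HSPA5 (chr9:125241371-125241429, minus strand): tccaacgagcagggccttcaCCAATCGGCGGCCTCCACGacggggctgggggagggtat
HSP90B1, distal (chr12:103930196-103930254, plus strand): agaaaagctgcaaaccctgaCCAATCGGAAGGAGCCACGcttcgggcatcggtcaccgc
HSP90B1, proximal, match on the opposite strand (chr12:103930301-103930359, plus strand): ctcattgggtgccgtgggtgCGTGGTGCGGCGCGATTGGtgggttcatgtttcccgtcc
CALR, match on the opposite strand (chr19:12938364-12938422, plus strand): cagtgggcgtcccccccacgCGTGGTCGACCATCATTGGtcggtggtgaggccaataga
CANX (chr5:179698758-179698816, plus strand): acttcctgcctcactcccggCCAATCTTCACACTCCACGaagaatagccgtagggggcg
PDIA6, from 1 of its 2 windows (chr2:10812833-10812891, minus strand): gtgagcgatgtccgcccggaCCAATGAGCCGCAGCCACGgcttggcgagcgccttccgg
The HSPA5 match ended 47 bases before the annotated start, that of PDIA6 67 and that of CALR 206. HSP90B1 had 2 separate matches, ending 175 and 70 bases before its start. The CANX match lies in 3 of its 4 windows, so its distance depends on the start chosen. CCAAT and CCACG separated by 1 base, both read on the same strand, were in none of the members' windows and in those of 0.022% of all genes. The related element pairs ATTGG, the reverse complement of CCAAT, with CCACG across 1 base. That arrangement was not searched, so its share among genes is not known. The HYOU1 fragment below holds it on the opposite strand, as CGTGG, 1 base and CCAAT, overlapping TGACGTGG. TGATGCAAT, the letters searched for ATF4, was in none either, and in 0.293% of all genes. TGACGTGG, the core of the XBP1-type element, had 1 match among the members, against 0.927% of all genes.
HYOU1, match to TGACGTGG (chr11:119057366-119057413, minus strand): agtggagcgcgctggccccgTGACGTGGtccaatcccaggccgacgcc
These are matches of letters in a window and not measured binding sites.

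A probe counted as detected where its signal exceeded the average of an array's 384 blank spots by more than 2 of their SDs, and between 83.2% and 89.2% of gene probes did. All 6 HEK293 markers found on the array, among them VIM, NEFL and PAX2, were detected on every array, and so were some markers of other tissues, such as KRT14 and APOA1, so detection alone does not mark a cell type. The stimulation reached both lines: IFIT1, an interferon-induced RNA-binding protein, had log2 ratios of 6.58 (LGP2 line) and 7.08 (4KR line), and IFNB1, interferon beta, of 4.06 and 4.05. DHX58, the gene for LGP2, gave 41.4 and 51 at 0 hr and 12 hr in LGP2 cells and 22.8 and 42.6 in 4KR cells, and whether its probe reads the transgene is not known. Levels are given as intensities of the deposited table, in which every array has a median of 25, and they are compared only within a gene because probes differ in brightness. Log2 ratios come from the scanner values after background correction with an offset of 50 and quantile normalization, so they are relative to the bulk of genes on the same array. In RNA from whole cultures, fewer cells with a transcript and less of it per cell cannot be told apart.

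None of the 10 genes was clearly higher after stimulation. At 12 hr, 9 of the 10 had log2 ratios below 0 in LGP2 cells and all 10 in 4KR cells, with medians of -0.22 and -0.38. Of all genes tested, 53.8% lay below 0 in LGP2 cells and 54.1% in 4KR cells. Both ratios were below 0 for 9 of the 10, against 41.5% of all genes. No member was 1.5-fold higher in either line, where 1.86% and 1.58% of all genes were. PDIA4 was 1.5-fold lower in LGP2 cells, 1 of the 10, and PDIA3 and PDIA4 in 4KR cells, 2 of the 10, against 0.501% and 0.424% of all genes. Among the 1138 genes in the brightness range of the 7 brighter members, PDIA3 and PDIA4 included, the shares were larger, 2.11% and 0.967%. No member was 2-fold lower, against 0.0118% and 0.00597% of all genes, and none 2-fold higher, against 0.436% and 0.406%. The shifts were small and, PDIA3 in LGP2 cells apart, in 1 direction. They are relative to the other genes: without normalization between arrays the members' medians were -0.05 and -0.02, where the median of all genes was 0.12 and 0.26.

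**Figure D1:**
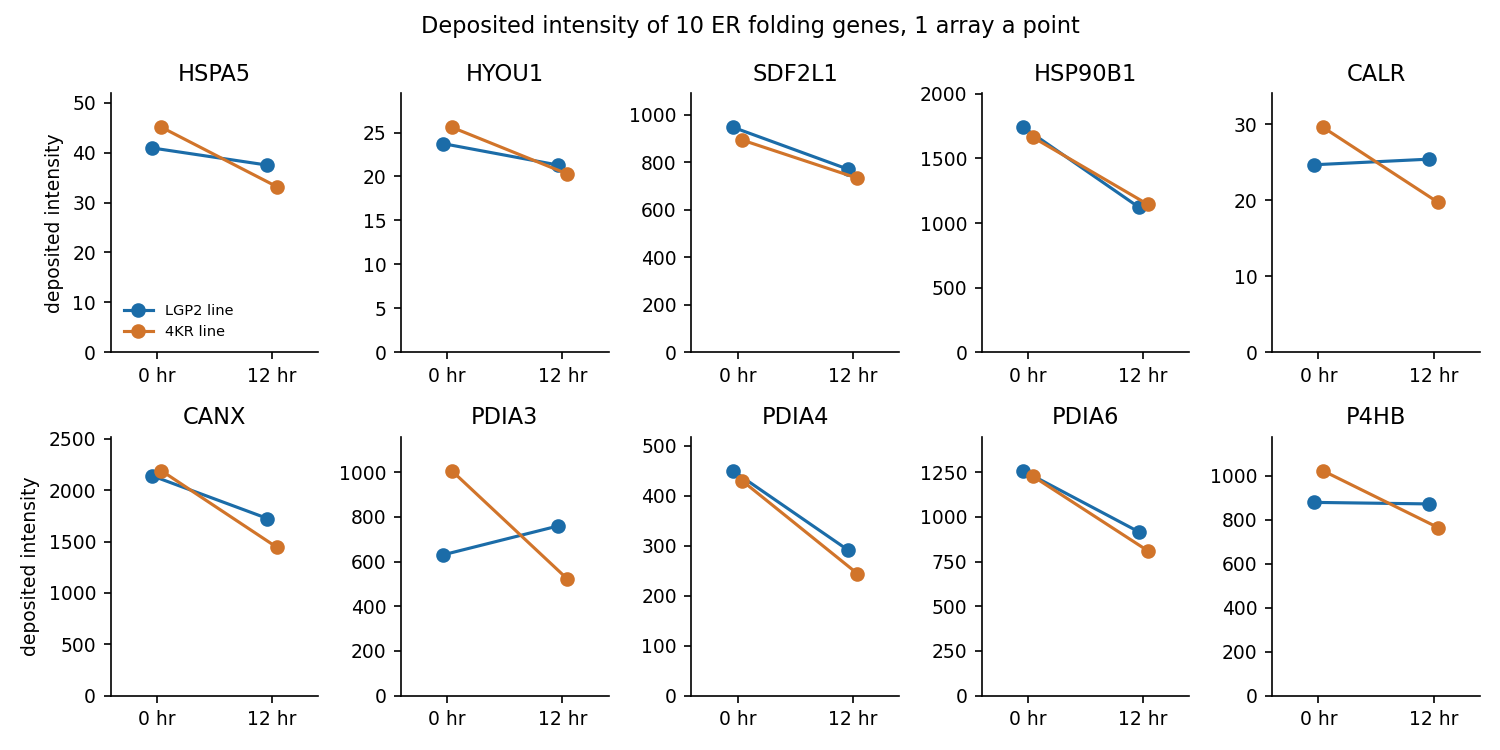
Deposited intensity (array median 25) of each of the 10 ER folding genes at 0 hr and 12 hr, 1 point an array, blue for the LGP2 line and orange for the 4KR line, each panel with its own axis from 0. Intensities were lower at 12 hr in both lines for 8 genes, while CALR and PDIA3 were higher at 12 hr in the LGP2 line only. No share over all genes is given for these intensities, so the count is a description.

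HSPA5 encodes BiP, the Hsp70 of the ER lumen, which holds the sensors inactive and is the usual marker of an unfolded protein response. Its deposited intensity was 40.9 at 0 hr and 37.5 at 12 hr in LGP2 cells, and 45.1 and 33.2 in 4KR cells. Both stimulated arrays lay below both unstimulated arrays. With so few arrays such a separation, given for other genes below as well, is no test, and its share over all genes is not given. The log2 ratios were -0.23 and -0.38. The probe was dim, and its scanner signal over the blank spots was 70.3 and 73.9 in LGP2 cells and 75.3 and 80.1 in 4KR cells, about as high at 12 hr as at 0 hr before arrays were scaled to each other. The lower HSPA5 level is thus a level relative to other genes, and without normalization its log2 ratios were 0.02 and 0.05.

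HYOU1, a large Hsp70-related protein that exchanges nucleotide on BiP, gave intensities of 23.7 at 0 hr and 21.3 at 12 hr in LGP2 cells and 25.6 and 20.3 in 4KR cells. Its log2 ratios were -0.18 and -0.23, close to each other. SDF2L1, a cofactor that keeps BiP clients from aggregating and is strongly induced by ER stress in other settings, gave 948 and 770.4 in LGP2 cells and 894 and 733 in 4KR cells. For both genes the stimulated arrays again lay below the unstimulated ones in these scaled intensities. Before scaling, the dim HYOU1 probe gave 40.8 and 42.0 over the blank spots in LGP2 cells and 42.7 and 49.0 in 4KR cells. The SDF2L1 probe then gave 1628 and 1519 in LGP2 cells and 1491 and 1770 in 4KR cells. The log2 ratios of SDF2L1 were -0.31 and -0.22.

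HSP90B1 encodes GRP94, the Hsp90 of the ER, which folds integrins and Toll-like receptors. Its intensity was 1741 at 0 hr and 1123 at 12 hr in LGP2 cells, and 1665 and 1144 in 4KR cells. The arrays of each time lay close together and the times did not overlap. The log2 ratios were -0.58, which is just short of 1.5-fold, and -0.38, and in LGP2 cells 0.525% of genes had a lower ratio. Without normalization between arrays the ratio stayed at -0.43 in LGP2 cells but came to -0.0083 in 4KR cells.

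Both lectin chaperones had ratios below 0, nearer to it in LGP2 cells than in 4KR cells, a difference that was not tested. CALR, calreticulin, is the soluble lectin that holds glycoproteins with a trimmed glucose. It gave 24.7 at 0 hr and 25.4 at 12 hr in LGP2 cells and 29.6 and 19.7 in 4KR cells, so the groups overlapped. Its log2 ratios were -0.10 and -0.36, on a dim probe. CANX, calnexin, the membrane-bound lectin, gave 2141 and 1726 in LGP2 cells and 2191 and 1446 in 4KR cells, with no overlap between times. The log2 ratios of CANX were -0.22 and -0.42. Its probe gave 3678 and 3403 over the blank spots in LGP2 cells before scaling, and 3656 and 3492 in 4KR cells.

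Among the isomerases PDIA4 had the lowest ratio in LGP2 cells and was past 1.5-fold lower in both lines. PDIA4, ERp72, is a disulfide isomerase that also associates with chaperones. Its intensity was 449.8 at 0 hr and 291 at 12 hr in LGP2 cells, and 429.8 and 244 in 4KR cells. Both stimulated arrays lay far below both unstimulated ones. Over the blank spots and before scaling, the PDIA4 probe gave 773 and 574 in LGP2 cells and 717 and 589 in 4KR cells. The log2 ratios were -0.72 and -0.79, and 0.159% of genes in LGP2 cells and 0.0836% in 4KR cells had a lower ratio.

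PDIA6, an isomerase that binds BiP and attenuates IRE1 signalling, gave 1258 and 917 in LGP2 cells and 1228 and 810.1 in 4KR cells. Its times did not overlap, and its log2 ratios were -0.42 and -0.50. The PDIA6 probe gave 2161 and 1808 over the blank spots in LGP2 cells before scaling, and 2050 and 1956 in 4KR cells. P4HB, the classical disulfide isomerase and a subunit of prolyl 4-hydroxylase, gave 879 and 872 in LGP2 cells and 1023 and 764 in 4KR cells. The LGP2 arrays were nearly equal, and the stimulated 4KR array was the lowest of the 4 in these scaled intensities. Before scaling, the P4HB probe gave 1510 and 1719 over the blank spots in LGP2 cells and 1707 and 1844 in 4KR cells. Its log2 ratios were -0.05 and -0.31.

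PDIA3, ERp57, is the isomerase that works with calreticulin and calnexin on glycoproteins and belongs to the complex that loads MHC class I molecules. Its log2 ratios had opposite signs in the lines, as those of no other member did under the main processing, although the deposited intensities of CALR also moved in opposite directions. Its intensity was 629.7 at 0 hr and 759 at 12 hr in LGP2 cells, and 1007 and 523 in 4KR cells. The 4 values alternated, with the highest and the lowest both in 4KR cells. The log2 ratios were 0.20 (LGP2) and -0.83 (4KR), and the second was past 1.5-fold.

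**Figure D2:**
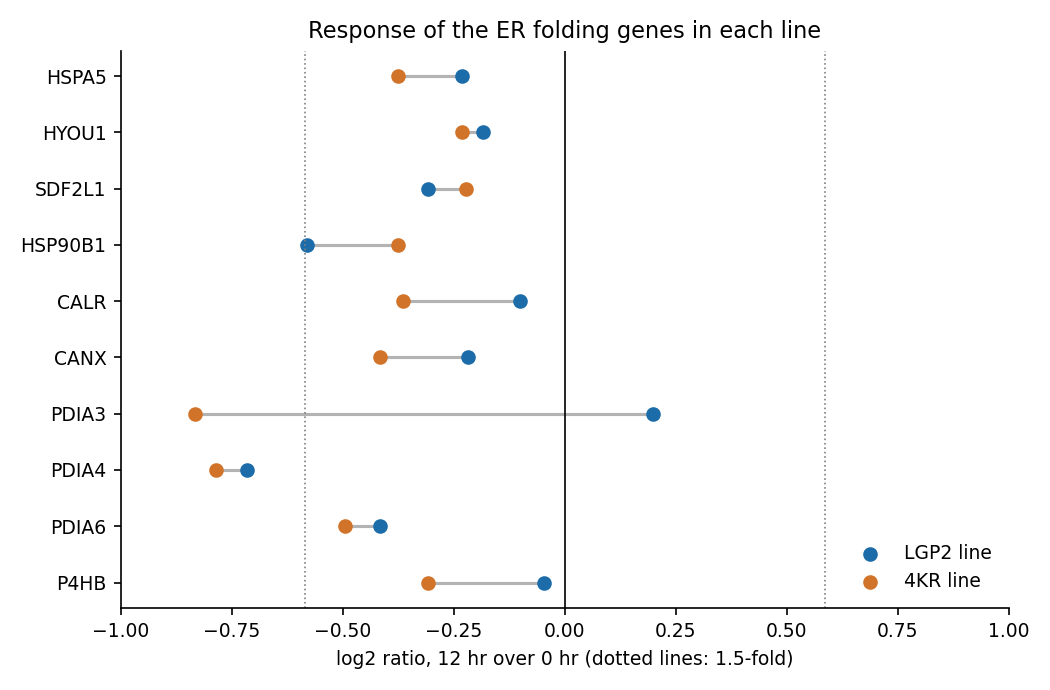
Log2 ratio of 12 hr over 0 hr for each ER folding gene (x axis; dotted lines mark 1.5-fold), blue for the LGP2 line and orange for the 4KR line, joined by a grey bar. All points but that of PDIA3 in the LGP2 line lie left of 0, and PDIA4 is the only gene past 1.5-fold lower in both lines.

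The 2 lines were also taken as replicates of the stimulation, in an additive limma fit over all 17085 genes detected on at least 1 array, with line and stimulation as terms and 1 residual degree of freedom a gene. In this fit a difference between the lines' responses counts as error, and 2 lines are not 2 cultures of 1 line. Each gene's error was also moderated toward that of genes of similar level, so its SE and p-value are not its own line spread alone. All 10 estimates were below 0, as were 55.3% of all. At a Benjamini-Hochberg adjusted p under 0.05, 5 of the 10 genes fell and 0 rose, against 8.73% of all genes lower and 10.1% higher. PDIA4 fell by 0.75 on the log2 scale (SE 0.07, adjusted p = 0.00546), to 0.595 of its unstimulated level. HSP90B1 fell by 0.48 (SE 0.09, adjusted p = 0.0208), PDIA6 by 0.46 (SE 0.08, adjusted p = 0.0174), HSPA5 by 0.30 (SE 0.05, adjusted p = 0.0208) and HYOU1 by 0.21 (SE 0.04, adjusted p = 0.0231). These 5 are the Hsp90 of the ER, BiP, its nucleotide exchange factor and a pair of isomerases.

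The other 5 genes did not pass in the limma fit. CANX, SDF2L1 and CALR were at -0.32, -0.27 and -0.23 with adjusted p of 0.0564, 0.0662 and 0.0719. P4HB was at -0.18 (SE 0.09, adjusted p = 0.239). PDIA3 was at -0.32 with the largest error of the 10 (SE 0.23, adjusted p = 0.391), its responses in the lines being opposite. Without normalization between arrays none of the 10 passed, and the members' median estimate was 0.03, with 6 of the 10 above 0. With the medians of the array blocks set equal, 8 passed as lower, and no share over all genes is given for that fit. Over 12 fits, the one above included, PDIA4, HSP90B1 and PDIA6 passed as lower in 11, HSPA5 and HYOU1 in 10, CANX in 6, SDF2L1 in 3 and PDIA3 in 0. CALR and P4HB, left out of the fit without their blocks, passed in 1 and 0 of 11. Several of these fits kept the members' log2 values and changed only the other genes or the error model, so they are not separate checks.

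Genes of the members' brightness were set beside them. The 7 brighter members lay between log2 levels of 9.48 and 11.81, a range that held 1138 genes detected on all arrays. Those genes had median log2 ratios of -0.05 in both lines, while the 7 members had medians of -0.31 and -0.42. In LGP2 cells 14.2% of those genes lay below the members' median, and in 4KR cells 6.59%. The 3 dim members, HSPA5, HYOU1 and CALR, had medians of -0.18 and -0.36 in a range with 2014 genes, whose medians were -0.02 in both lines.

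The remaining ER genes were described through lists of pathway neighbours, and unlike those of the members and co-chaperones most of their medians changed sign relative to all genes in some processing. Of 14 genes for ER co-chaperones and secreted ER stress factors, 7 fell and 1 rose in the limma fit, against 8.73% and 10.1% of all genes. The list's medians were -0.26 in LGP2 cells and -0.25 in 4KR cells. CRELD2, a secreted factor known as an ER stress marker, fell by 0.54 (adjusted p = 0.011). PPIB, the ER cyclophilin, fell by 0.49 (adjusted p = 0.0119). MANF, a secreted ER stress factor, was at -0.68 and -0.16 and did not pass (adjusted p = 0.0887), and its probe sits in array block 24, in which 4KR minus LGP2 responses had a median of 0.15. FKBP14, a prolyl isomerase of the collagen pathway, was the gene that rose, by 0.67 (adjusted p = 0.00786).

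Of the 15 detected genes for other isomerases and oxidases, 5 fell and 0 rose, against 8.73% and 10.1% of all genes. Their medians were -0.13 and -0.06. Relative to all genes the median in 4KR cells ran from -0.18 to 0.06 over the settings. ERO1A, the oxidase that recharges the isomerases, fell by 0.38 (adjusted p = 0.0172), and TXNDC5 and PDIA5, both isomerases, fell by 0.38 and 0.34. TMX4, a membrane thioredoxin, fell by 0.28. Of 9 calnexin cycle genes 3 fell and 0 rose, with medians of -0.10 and -0.18 and, relative to all genes in LGP2 cells, a run from -0.16 to 0.03 over the settings. UGGT1, the folding sensor that re-adds glucose, fell by 0.25, PRKCSH, a glucosidase II subunit, by 0.27 and CLGN by 0.20, while LMAN2 was at -0.10 and -0.43 without passing.

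Of 23 genes for degradation and translocation at the ER, 4 fell and 0 rose, against 8.73% and 10.1% of all genes. Their medians were -0.17 and -0.07. Relative to all genes these medians ran from -0.21 to 0.02 and from -0.15 to 0.05 over the settings. Those that fell were OSTC and SSR3, which act at the translocon, by 0.46 and 0.41, OS9, a lectin of ER-associated degradation, by 0.41, and DERL3 by 0.38. HERPUD1 and DNAJB9, both commonly used as markers of the ATF6, PERK or IRE1 arms, were at -0.08 and -0.07 and at 0.13 and 0.10 in LGP2 and 4KR cells.

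The sensors themselves were near 0. ERN1 was at 0.07 in LGP2 cells and -0.13 in 4KR cells, ATF6 at 0.03 and 0.04, and EIF2AK3 at 0.04 and 0.08. XBP1 differed from them: its intensity was 448.9 at 0 hr and 723 at 12 hr in LGP2 cells and 479.6 and 660.0 in 4KR cells, and it rose by 0.51 (SE 0.08, adjusted p = 0.0143). Both stimulated arrays lay above both unstimulated ones. The XBP1 promoter window also holds the ER stress response element, shown for comparison with the members.
XBP1, from 1 of its 2 windows (chr22:28800583-28800641, minus strand): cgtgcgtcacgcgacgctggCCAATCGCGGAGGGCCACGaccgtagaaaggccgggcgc
The probe's values do not tell spliced from unspliced XBP1. Of the 12 genes of this list 1 rose and 1 fell in the limma fit, near the shares of all genes, 10.1% and 8.73%. The gene that fell was ATF6B, a relative of ATF6, by 0.23 (adjusted p = 0.0463). CREB3L4 and CREB3, membrane-bound factors related to ATF6, were at -0.13 and -0.21 and at -0.12 and -0.17 without passing.

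The list of ATF4 and its targets moved the other way. It and the members were chosen with earlier results of these data known, so the contrast is a description and not a test. Of 33 genes, 18 rose and 0 fell in the limma fit, against 10.1% and 8.73% of all genes. In LGP2 cells 10 were 1.5-fold higher and in 4KR cells 8, against 1.86% and 1.58% of all genes. The list's medians were 0.34 and 0.36. ATF3, a stress-induced transcription factor, gave 55.6 at 0 hr and 533 at 12 hr in LGP2 cells and 67.8 and 411 in 4KR cells, and rose by 2.36 (adjusted p = 0.000632). PPP1R15A, the phosphatase subunit that reverses eIF2 alpha phosphorylation, rose by 1.49, SLC3A2, an amino acid transporter subunit, by 1.45 and DDIT4, an inhibitor of mTORC1, by 1.07. DDIT3, which encodes CHOP, rose by 0.45 (adjusted p = 0.0185). The transcript of ATF4 itself was at -0.03 and 0.49 and did not pass, and 1 of its probes lies in block 24. ATF3, PPP1R15A and DDIT4 also respond to NF-kB, interferon or growth signals, and the part of these in their values was not tested. Of the 27 genes of this list with promoter windows, 0 had the ER stress response element and 0 had TGATGCAAT. Since the listed ATF4 targets lacked TGATGCAAT too, its absence from the members' windows does not tell the 2 lists apart.

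**Figure D3:**
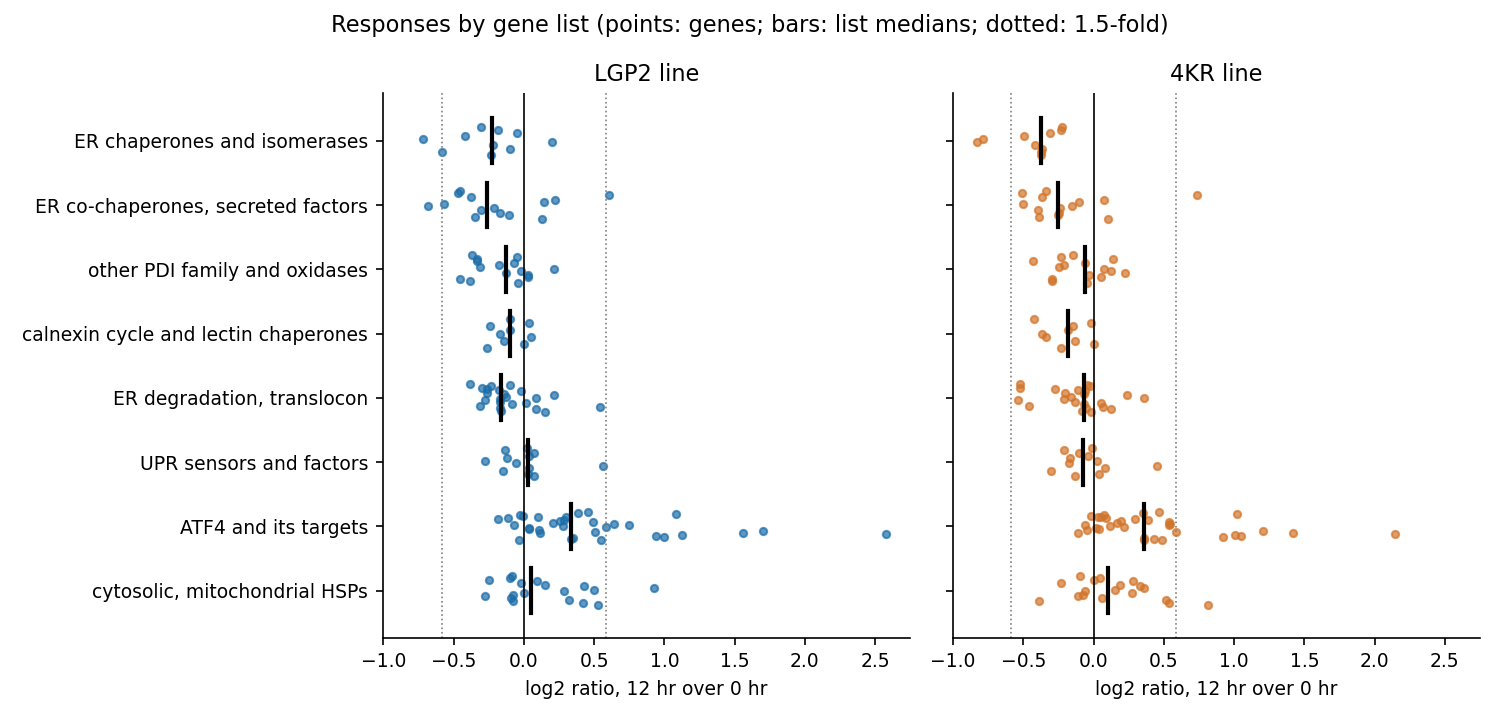
Log2 ratios of 12 hr over 0 hr (x axis; dotted lines mark 1.5-fold) for the detected genes of 8 lists, 1 point a gene with the list median as a black bar, LGP2 line on the left and 4KR line on the right. The ER chaperones and isomerases have medians of -0.22 and -0.38, and ATF4 and its targets of 0.34 and 0.36.

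Heat shock proteins outside the ER were listed as well. Of 18 cytosolic and mitochondrial genes 5 rose and 0 fell, against 10.1% and 8.73% of all genes. Their medians were 0.05 and 0.11, which relative to all genes ran from -0.06 to 0.19 and from -0.16 to 0.22 over the settings. HSPA1A, the inducible cytosolic Hsp70, rose by 0.67 (adjusted p = 0.0118) and HSPA8, its constitutive relative, by 0.42 (adjusted p = 0.0265). DNAJA1, a cochaperone of cytosolic Hsp70, rose by 0.64 (adjusted p = 0.0344) and HSPA1B, a near-identical copy of HSPA1A whose probes may share its signal, by 0.48 (adjusted p = 0.0165). HSPA5, the Hsp70 of the ER, stayed below the median of all genes in both lines when that median was subtracted from ratios without normalization, at -0.09 and -0.21.

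Genes outside the 10 that hold the ER stress response element lay on both sides of 0. Of the 25 genes with a match in the table, 20 were detected, and 14 of these lay below 0 in LGP2 cells and 10 in 4KR cells. The 5 members with a match had medians of -0.23 and -0.38, and the 15 other genes of -0.02 and 0.03. Apart from the members, CRELD2 was at -0.57 and -0.51 and XBP1 at 0.56 and 0.45, the extremes on either side.

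The lines were compared with each other in the same genes. At 0 hr 7 of the 10 members were higher in 4KR cells than in LGP2 cells, with a median log2 ratio of 0.07, and 1 was 1.5-fold higher, against 0.13% of all genes, while none was 1.5-fold lower, against 0.341%. None was 2-fold higher or lower, against 0.0124% each. Of all genes, 44.9% were lower in 4KR cells. The member past 1.5-fold was PDIA3, at 0.65, followed by P4HB at 0.22 and CALR at 0.13. At 12 hr 8 of the 10 were lower in 4KR cells, with a median of -0.05, and none was past 1.5-fold, against 0.0352% of all genes lower and 0.0586% higher, or past 2-fold, against 0.0117% higher and 0.0% lower. Of all genes, 50.8% were lower. PDIA3 was lowest at -0.39 and HSP90B1 highest at 0.19. The response of 4KR cells minus that of LGP2 cells shares its 4 arrays with these values. It was below 0 for 8 of the 10 members with a median of -0.11, against 50.7% of all genes below 0.

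For PDIA3 this difference was -1.03, the only member past 1.5-fold, against 0.432% of all genes, and past 2-fold, against 0.0381%. None was 1.5-fold higher, against 0.451%, or 2-fold higher, against 0.0254%. The PDIA3 difference ranged from -1.21 to -0.845 over the settings tried. The PDIA3 probe lies in block 19, whose probes had a median difference of -0.02. The next members were CALR at -0.26 and P4HB at -0.26. Their probes lie in blocks 20 and 21, where the probes' median differences were -0.08 and -0.09, and with block medians set equal the values were -0.20 and -0.16. Only HSP90B1 at 0.21 and SDF2L1 at 0.09 had a response that was less negative in 4KR cells.

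The scaling between arrays set how far the members lay below 0. Without normalization 4 of the 10 were above 0 in each line. Once the median of all genes was subtracted, a setting chosen after seeing the data, the members' medians were -0.17 and -0.28. In the deposited table the members' medians were -0.23 and -0.56, where all genes had 0.25 and 0.15. In every one of the settings tried, 0 members were 1.5-fold higher in either line. Under the main processing 1.86% and 1.58% of all genes were, so 0 of 10 is near that share. Between 9 and 18 ATF4 list genes were 1.5-fold higher in LGP2 cells and between 7 and 24 in 4KR cells. This leaves aside the setting without blocks 20, 21 and 24, which had fewer genes and gave 7 and 6. The highest counts came from the deposited table in LGP2 cells and without normalization in 4KR cells. There the medians of all genes were themselves 0.25 and 0.26.

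**Figure D4:**
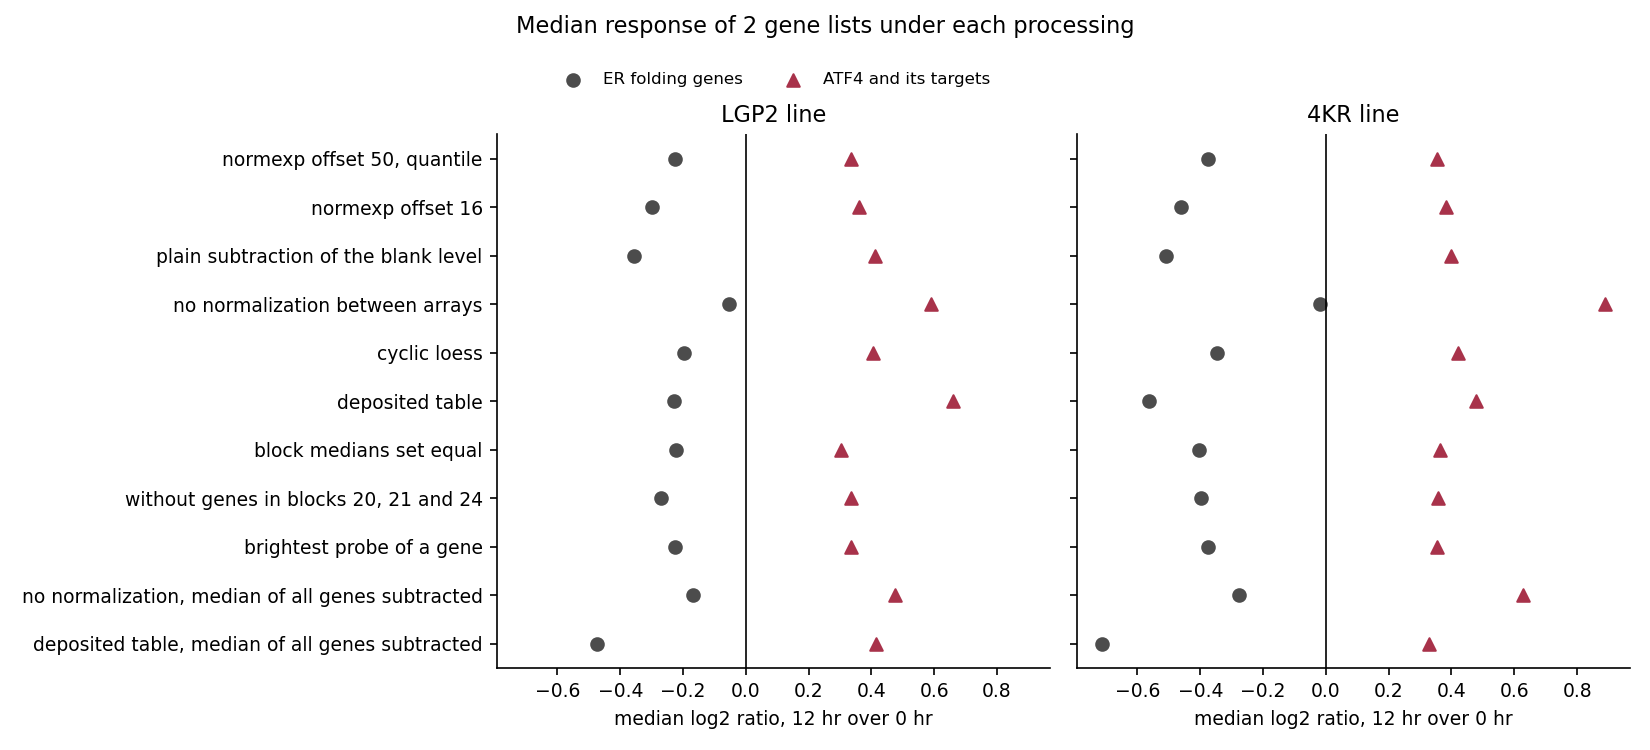
Median log2 ratio of 12 hr over 0 hr (x axis) for the ER folding genes (circles) and for ATF4 and its targets (triangles) under each processing (y axis), LGP2 line on the left and 4KR line on the right. The circles lie between -0.47 and -0.05 in LGP2 cells and between -0.71 and -0.02 in 4KR cells, and the triangles lie above 0 throughout.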

How the data were processed

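Single-colour arrays were hybridised with Cy5-labelled amplified RNA, per the labels' protocols. The deposited scanner files hold the median intensity of each spot, not normalized, per the file headers. The intensity table deposited by the authors is scaled to a median of 25 on each array. From the scanner intensities deposited, normexp (limma 3.58.1, R 4.3.3; offset 50, mean blank spot as background), quantile normalization and log2 gave the ratios. Probes were named through the platform annotation, those of a gene were averaged, and 1 rejected probe was left out. The files name no genome build. The motif search used the RefSeq promoter table, and PDIA3 had no window in it. Counts by fold needed detection on the brighter array. Alternatives covered offset, background, normalization, position on the array, probe rule and filters. Beyond the members, named genes are the 4 of each list with the largest mean response among those detected on all arrays, by absolute value, plus the sensors, XBP1, ATF4 and DDIT3, with IFIT1 and IFNB1 as a check. HERPUD1, DNAJB9 and DHX58 were added after their values were seen. The members and lists were chosen with earlier results of these data known. Precision is limited by having 4 arrays in all. The p-values rest on the spread between the lines, pooled in part over genes of similar level, and not on replicate cultures. No protein sequences were used here.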

Additional observations from a re-analysis of the deposited data

Results flagged for a closer look

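PDIA3 was flagged because its responses had opposite signs in the lines, 0.20 in LGP2 cells and -0.83 in 4KR cells, a difference of -1.03. With 1 array a group this difference was not tested. No group had enough arrays for a check of outlying samples.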

How the results depend on the processing

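The limma fit compares the times within each line, since line is a term in it. No replicate block could be added to it because each line and time has 1 array, and leaving out a line was not run as a fit since 1 array a group would be left. Results are medians of the members' log2 ratios and counts of members 1.5-fold lower. Without normalization between arrays the medians were -0.053 (LGP2 response), -0.017 (4KR response), 0.073 (difference of responses) and 0.092 (lines at 12 hr), with 0 members lower in either line. The limma estimate was then 0.028 over the members with 0 passing, and it turned positive for HSPA5 (0.038), CALR (0.030), PDIA3 (0.026), P4HB (0.14), HYOU1 (0.042) and SDF2L1 (0.071). With the median of all genes subtracted, 0 were lower in LGP2 cells and 1 in 4KR cells, whose median was -0.28. An offset of 16 gave -0.30 with 2 lower in LGP2 cells and -0.46 in 4KR cells. Plain subtraction of the blank level gave -0.36 with 2 lower, -0.51 with 4 lower, and -0.46 for the limma estimate. The deposited table gave 2 lower in LGP2 cells, -0.56 with 5 lower in 4KR cells, -0.24 with 2 lower for the difference, and -0.18 between lines at 12 hr. Its ratios with the median of all genes subtracted gave -0.47 with 3 lower and -0.71 with 7 lower. With block medians equal, 2 were lower in LGP2 cells and 8 passed as lower in the limma fit. Both subtractions of the median were chosen after seeing the data. Shares over all genes are not given for these settings, so the counts of members have no background beside them. The cause of these changes was not tested. Of the alternative values of such summaries, 167 stayed within the spread between lines or 1.5 times the count and 31 did not. Some of the 167 could not change. Each member has 1 probe, detected on all arrays, so the probe rule and the detection filter leave its ratios as they were. Counts that stayed at 0 are among the 167 too. The tally is thus no measure of robustness. Signal over background limits HSPA5, CALR and HYOU1, the dim probes.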
